A study of Homo sapiens with 16 samples.

Results

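The 10 genes described here encode secreted factors that act on blood vessels and the receptors that read them: Vegfa, Vegfb, Vegfc, Pgf, Angpt2, Thbs1, Flt1, Kdr, Nrp1 and Tek, 10 of the 32285 genes counted. They were taken by name, as a list of vessel factors and receptors. They were followed in mouse mammary tumors of 2 transplantable lines (MDST models), T22 (LPA1-T22), on which PARP inhibitors act, and T127 (LPA1-T127), which does not respond to them. Tumor pieces were placed in the mammary fat pads of female FVB mice aged 6 weeks, and mice received vehicle or the PARP inhibitor olaparib (50 mg/kg daily, oral). Tumors were collected after 4 or 8 days in the short-term experiments, which hold T22 in 4 pools and T127 in another 4 pools, and after 20 days in the long-term experiment, in which 8 pools hold both lines grown alone (single strain) or co-transplanted into 1 mouse. Both lines derive from transgenic mice with the LPA1 receptor in their mammary epithelium, all groups share the host strain and site of transplantation, and every pool mixes vehicle and olaparib treated tumors.

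New vessels grow into a tumor when endothelial cells are stimulated by secreted factors. VEGF-A, the leading stimulus and a target of hypoxia signaling, acts through the receptor kinase KDR (VEGFR2). FLT1 (VEGFR1) binds VEGF-A, VEGF-B and placental growth factor (PGF) and can act as a decoy, and NRP1 is a co-receptor that macrophages and fibroblasts also use. VEGF-C acts mainly through FLT4 and KDR. The TEK (TIE2) kinase keeps vessels quiescent, and angiopoietin-2 (ANGPT2), released by sprouting endothelium, opposes the stabilizing ligand ANGPT1 at this receptor. Thrombospondin-1 (THBS1) is a matrix protein that restrains angiogenesis. The data were searched for which cells carried the RNA of each ligand, which cells carried the receptors, and whether T22 and T127 tumors differed in either.

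Levels are given as the unique molecular identifiers (UMIs, each standing for 1 captured RNA molecule) of a gene, summed over the cells of a cluster, per 1000000 UMIs of those cells (CPM). The cluster names are those the authors deposited. A ratio is called when it reaches 2-fold after 1 CPM is added to both levels, among genes with at least 5 CPM in 1 of the groups compared. Because pools hold mixed tumors and no cell was linked to its tumor here, vehicle could not be compared with olaparib and each experiment counts as 1 sample. No difference therefore has a p-value, the 95% intervals in parentheses cover counting error only, and the range over pools is given beside them. Short-term T22 and T127 cells lay in separate pools, so line, capture and depth cannot be told apart in their contrasts. Reads come from the 3′ end of transcripts, so the levels of different genes are not compared with each other. Because RNA was summed over a cluster, more RNA per cell and more expressing cells in the cluster cannot be told apart from a level alone.

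The short-term T22 pools held 15094 cells, the T127 pools 8007 and the long-term pools 30845, of which 25723 remained when each barcode shared between pools was counted once at its deepest copy. Pool totals ran from 34755906 to 55600377 UMIs, and the median cell of a pool held 7730 to 8528 UMIs in T22, 22712 to 26017 in T127 and 3105 to 11712 in the long-term experiment. Long-term pools 1 and 2 shared 3939 barcodes, and pool 3 shared 987 and 1082 with them, whereas any other pair shared 8 or fewer. Long-term pools 1 to 4 also differed from pools 5 to 8 in make-up, with Malign_1 at 10.1% and 4.06% of cells. Malignant cells gave 31.8% of all UMIs in short-term T22, 84.1% in T127 and 45.8% in the long-term pools.

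**Figure D1:**
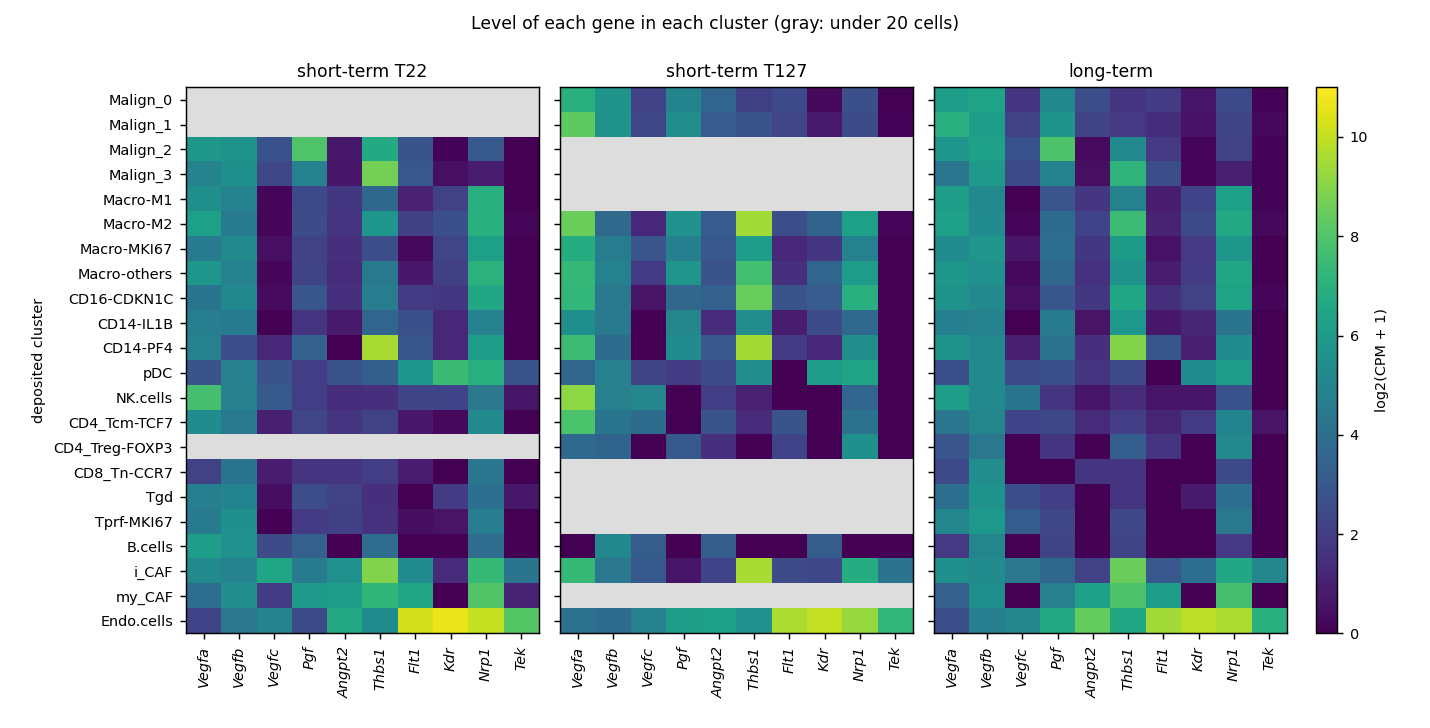
Levels of the 10 genes, as log2(CPM + 1), in each deposited cluster of the 3 experiments, with clusters of fewer than 20 cells in gray. Flt1, Kdr, Nrp1, Tek and Angpt2 peak in Endo.cells in all 3 experiments, whereas Vegfa is highest in NK.cells or Malign_1, Pgf in Malign_2 or, in T127, Endo.cells, and Thbs1 in CD14-PF4 or i_CAF.

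The receptors marked the endothelial cluster. Endo.cells numbered 88 in short-term T22, 118 in short-term T127 and 249 in the long-term pools, and all 8 endothelial markers, among them the junction protein gene Cdh5 and Plvap, were highest there of all clusters, with a summed level of 9047, 8934 and 8788 CPM. Of 4 lymphatic endothelial markers, Prox1, Lyve1 and Pdpn were at 0 to 2.63 CPM, whereas Flt4, the VEGF-C receptor gene, was highest in Endo.cells of all clusters, at 157, 109.6 and 76.3 CPM. Pericyte and mural markers summed to 373.8 CPM in T22 (pools 46.7 to 1394), 447 in T127 and 171 in the long-term cells, and macrophage markers to 21.9, 34.5 and 98.2 CPM. The part of these other cells in the levels below was not tested.

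Kdr, the main signaling receptor for VEGF-A, stood at 1661 CPM in Endo.cells of T22, 1003 in T127 and 953.8 in the long-term pools. Its pool values were 1359, 1651, 1462 and 2006 CPM in T22, and 893.9, 844.8, 1170 and 1406 CPM in T127. Over all other cells it was 790-fold (702 to 891), 556-fold (495 to 627) and 389-fold (354 to 428) higher. Flt1 reached 1215, 789.9 and 718 CPM in Endo.cells, 210-fold, 182-fold and 325-fold over the other cells. Tek reached 276.4, 149.3 and 124.5 CPM, which was 327-fold, 740-fold and 98.1-fold over the other cells. Nrp1 was less restricted: its Endo.cells level of 1053, 630.0 and 805.7 CPM was 17.0-fold, 44.7-fold and 17.8-fold above the remainder.

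Counted over all 10 genes, 6 were called higher in Endo.cells than in other cells in T22, where 16.4% of all tested genes were, 7 in T127 (16.1%) and 7 in the long-term pools (18.5%). The count lower was 2 in each experiment, against 20.9%, 20.0% and 18.0% of tested genes. Since the clusters were made from the expression of these cells, the contrast is a description. The higher genes included the ligands Angpt2 and Vegfc in every experiment, and Pgf in T127 and the long-term pools. Angpt2, at 97.4, 72.5 and 338 CPM, was 23.0-fold, 7.88-fold and 109-fold higher. Vegfc, at 29.2, 28.3 and 33.3 CPM, was 4.65-fold, 7.61-fold and 13.0-fold higher, although i_CAF of T22 (88.7 CPM) and NK.cells of T127 (31.0 CPM) held more. Vegfa ran the other way. It was 14.4-fold (4.92 to 69.7), 12.8-fold (8.20 to 21.3) and 12.3-fold (5.65 to 33.5) lower in Endo.cells than in the other cells, on 3, 19 and 6 UMIs. Vegfb was the second gene called lower in T127 (3.36-fold) and in the long-term pools (2.22-fold), a call that is lost in long-term pools 1 to 4 (log2 -0.87).

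With each cell drawn down at random to 3000 UMIs and those below that depth set aside, Kdr was detected in 92.4%, 88.4% and 82.9% of Endo.cells of T22, T127 and the long-term pools, Flt1 in 89.4%, 75.8% and 70.7%, and Nrp1 in 86.4%, 80.0% and 78.6%. Tek was detected in 48.5%, 32.6% and 32.1% of them. The thinned Endo.cells numbered 66, 95 and 140, so 22, 23 and 109 shallower ones were set aside.

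**Figure D2:**
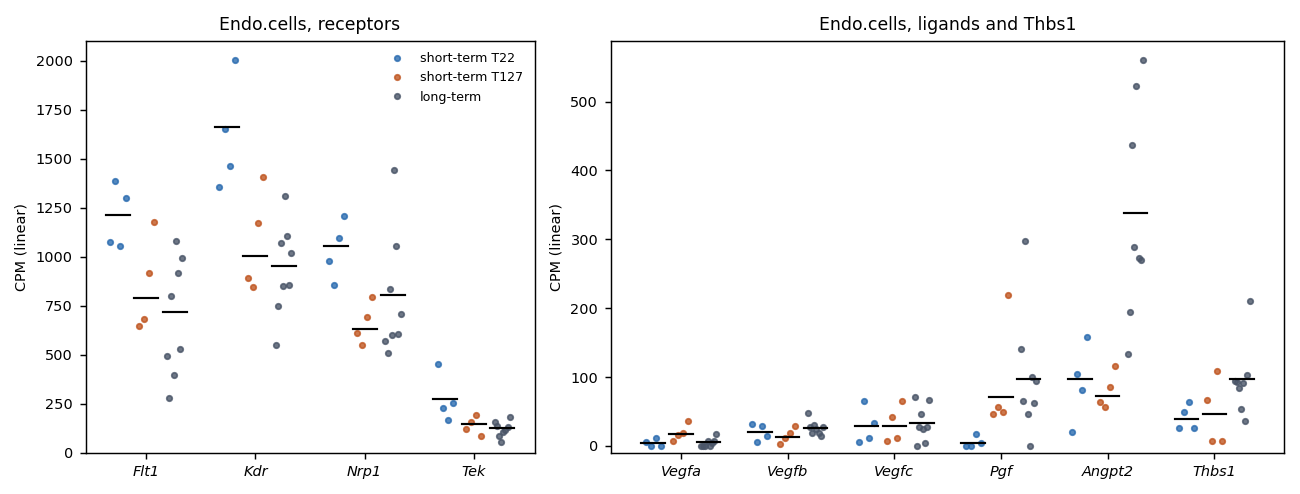
Level in Endo.cells (CPM, linear axis) of each of the 10 genes, 1 dot per pool, with a black line at the level over all pools of an experiment. The 4 T22 pools lie above the 4 T127 pools for Nrp1 and below them for Pgf, whereas the dots of the other genes overlap.

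Between the lines, endothelial cells of T22 and T127 differed in 2 of the 10 genes by the 2-fold rule, and all 10 passed the minimum level. None was called higher in T22 (7.68% of all tested genes were) and 2 were called lower (6.62%). Pgf, a ligand of FLT1, was the largest of these differences. It was at 0, 0, 17.4 and 3.66 CPM in the T22 pools, and at 46.5, 56.3, 48.6 and 218.5 CPM in the T127 pools. Every T127 pool was above every T22 pool. Over all pools Pgf stood at 4.87 CPM in T22 against 71.6 in T127, 14.7-fold lower (5.52 to 55.2), although only 4 UMIs lie behind the T22 value. Without T127 pool 4 the level in T127 was 51.3 CPM and the log2 ratio -3.15, and without T22 pool 3 the log2 ratio was -4.84. Pgf was 2.04-fold higher in Endo.cells than in other cells of T127, a call that rests on that pool (log2 0.53 without it), but 15.8-fold lower in T22.

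Vegfa was the second gene called lower, at 3.65 CPM in T22 and 16.8 in T127, a ratio of 4.60 (1.35 to 24.2). Its pools were at 5.19, 0, 11.6 and 0 CPM in T22 and at 6.65, 16.4, 18.7 and 36.4 CPM in T127, so the ranges overlapped. With 3 UMIs in T22, the interval of this ratio is wide, and the call is lost with a pseudocount of 10 CPM (log2 -0.97).

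All 4 receptors were somewhat higher in T22 endothelium, below the 2-fold rule. The ratios were 1.54 for Flt1 (1.40 to 1.69), 1.66 for Kdr (1.53 to 1.79), 1.67 for Nrp1 (1.51 to 1.85) and 1.85 for Tek (1.51 to 2.27), while the median log2 ratio of all tested genes was -0.02. Nrp1 was the receptor whose pools separated, with 980.5, 858.3, 1096 and 1208 CPM in T22 against 611.4, 549.1, 695.5 and 794.0 in T127. Non-overlapping pools at any fold were found for 9.87% of all tested genes. Tek was at 451, 229.6, 168 and 252.5 CPM in T22 and at 123, 159.6, 194 and 87.4 CPM in T127. It passed the rule when T22 pool 3 (log2 1.03) or T127 pool 3 (log2 1.02) was left out. Angpt2, at 20.8, 103.9, 81.2 and 157 CPM in T22 and 63.1, 56.3, 86.0 and 116.5 CPM in T127, overlapped, as did Thbs1, Vegfb and Vegfc.

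Angpt2 in Endo.cells stood at 338 CPM (305.5 to 373.9) in the long-term pools, above both short-term levels, with pools of 133, 194, 437, 289, 523, 272, 269 and 560 CPM. The lowest long-term pool lay within the short-term T22 range, which reached 157 CPM. After thinning, Angpt2 was seen in 9.1% of Endo.cells of T22, 12.6% of T127 and 30.7% of the long-term pools. The experiments differ in day and in the tumors they hold, so the day could not be told apart from the make-up of the pools. Pgf in long-term Endo.cells ranged from 0 to 297 CPM over pools. Its 2.47-fold excess over other cells fell below the rule without pool 3 (log2 0.95) and in pools 5 to 8 (log2 0.89).

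Wider lists of vessel genes were counted in endothelium by the same rule, by which 7.68% of all tested genes were higher and 6.62% lower. Of the 15 other VEGF, angiopoietin and semaphorin genes 11 passed the minimum, 0 were higher and 2 lower in T22, and of the 10 Notch, apelin and adrenomedullin genes all passed and none was called. The list of 15 also holds Thbs2, Cd36 and Cd47. The lists overlap: Thbs2 is counted among the angiogenesis inhibitors too, and Adm in both the adrenomedullin and hypoxia lists. Of 12 hypoxia response genes 2 were lower and 0 higher. Cxcl12, a chemokine that recruits CXCR4-bearing cells, was 3.08-fold higher in T22 endothelium (379 against 123 CPM). Serpinf1, which encodes the inhibitor PEDF, was at 7.31 against 2.65 CPM on 6 and 3 UMIs, with overlapping pools. Sema3a, a guidance ligand of neuropilins, had 0 UMIs in T22 and 27 in T127, at least 6.53-fold lower against a floor of 3 UMIs over the group. Pdgfa, a growth factor for fibroblasts, was 9.55-fold lower in T22, at 7.31 CPM, the level that 6 UMIs gave for Serpinf1. The mitophagy gene Bnip3, a hypoxia target, was at 3.65 against 16.8 CPM, the same levels as Vegfa, which had 3 UMIs in T22.

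**Figure D3:**
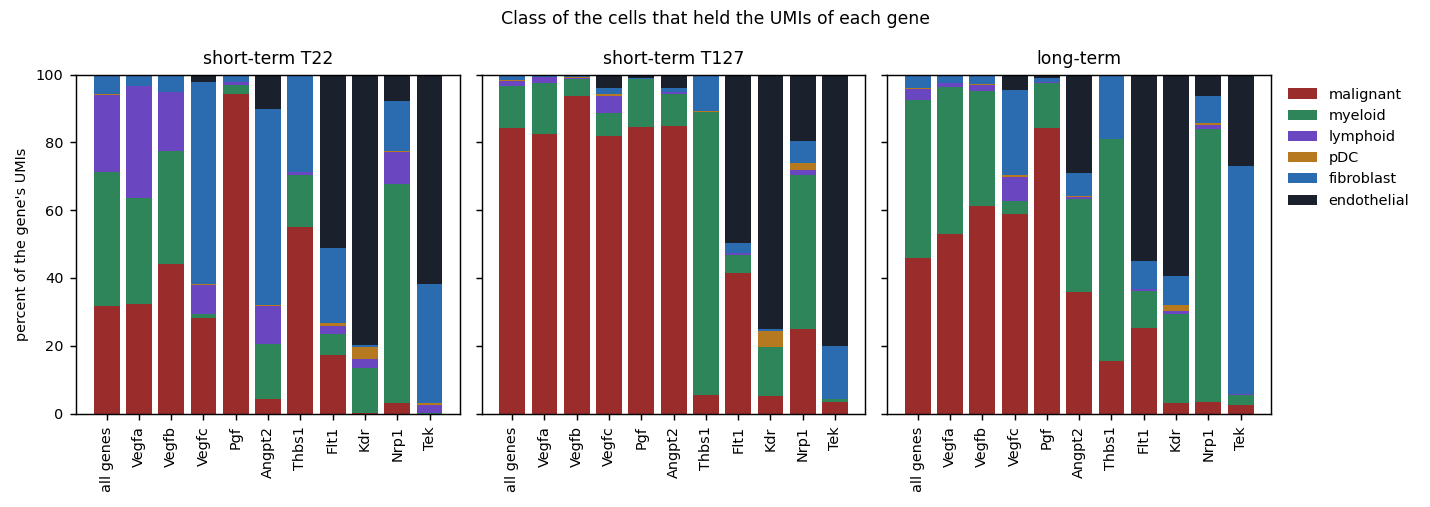
Share of each gene's UMIs (percent, bars stacked to 100) that came from malignant, myeloid, lymphoid, fibroblast, pDC and endothelial clusters in each experiment, with a bar for all genes together. Malignant cells give most Pgf UMIs in all 3 experiments, and the source of most Thbs1 UMIs is malignant in T22 (55.0%) and myeloid in T127 (83.4%).

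Most Pgf, Vegfa and Vegfb UMIs came from malignant, myeloid and lymphoid cells, as did most UMIs of all genes. Of all UMIs in T22, T127 and the long-term pools, malignant cells gave 31.8%, 84.1% and 45.8%. Myeloid cells gave 39.5%, 12.6% and 46.8%, and lymphoid cells 22.6%, 1.23% and 3.03%. Malignant cells gave 94.3% of Pgf UMIs in short-term T22, 84.5% in T127 and 84.2% in the long-term pools. For Vegfa the malignant share was 32.4%, 82.4% and 53.1% and the myeloid share 31.2%, 15.1% and 43.2%, with 32.9% from lymphoid cells in T22, where NK cells were numerous. Thbs1 came mostly from malignant cells in T22 (55.0%) and mostly from myeloid cells in T127 (83.4%) and in the long-term pools (65.3%). Fibroblasts were the leading source of Vegfc (59.6%) and Angpt2 (57.7%) in T22, whereas malignant cells were in T127 (81.7% and 84.9%). These shares follow the number of cells captured as well as their level. In T127 the malignant 82.4% of Vegfa, 84.5% of Pgf, 81.7% of Vegfc and 84.9% of Angpt2 are near the malignant share of all UMIs, 84.1%. With the 6 classes weighted equally, which compares levels and sets cell numbers aside, fibroblasts led Thbs1 in T22, T127 and the long-term pools (65.9%, 57.5% and 60.9%). The malignant share of Pgf was then 83.0% in T22, but 22.5% in T127 and 36.0% in the long-term pools, where the endothelial share was 45.4% and 48.0%. That of Vegfa was 24.9%, 22.2% and 35.0%, with lymphoid cells at 35.6%, 31.5% and 12.4%. Endothelial cells then led Angpt2 in T22 (61.2%) and T127 (68.2%) and Vegfc in T127 (46.3%), while fibroblasts still led Vegfc in T22 (62.2%).

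Kdr UMIs were 79.7%, 75.2% and 59.4% endothelial, although Endo.cells gave 0.494%, 0.541% and 0.374% of all UMIs. Flt1 UMIs were 51.0%, 49.8% and 55.0% endothelial, malignant cells gave a further 17.2%, 41.3% and 25.4%, and fibroblasts 22.1%, 2.95% and 8.39%. Tek UMIs were mostly endothelial in T22 (61.9%) and T127 (80.1%), and mostly fibroblastic in the long-term pools (67.2%). Myeloid cells were the leading source of Nrp1 UMIs, at 64.5%, 45.3% and 80.5%. With the classes weighted equally, Tek was 79.7% endothelial in the long-term pools, and Nrp1 was 70.1%, 69.0% and 74.5% endothelial and 7.25%, 6.85% and 7.66% myeloid.

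**Figure D4:**
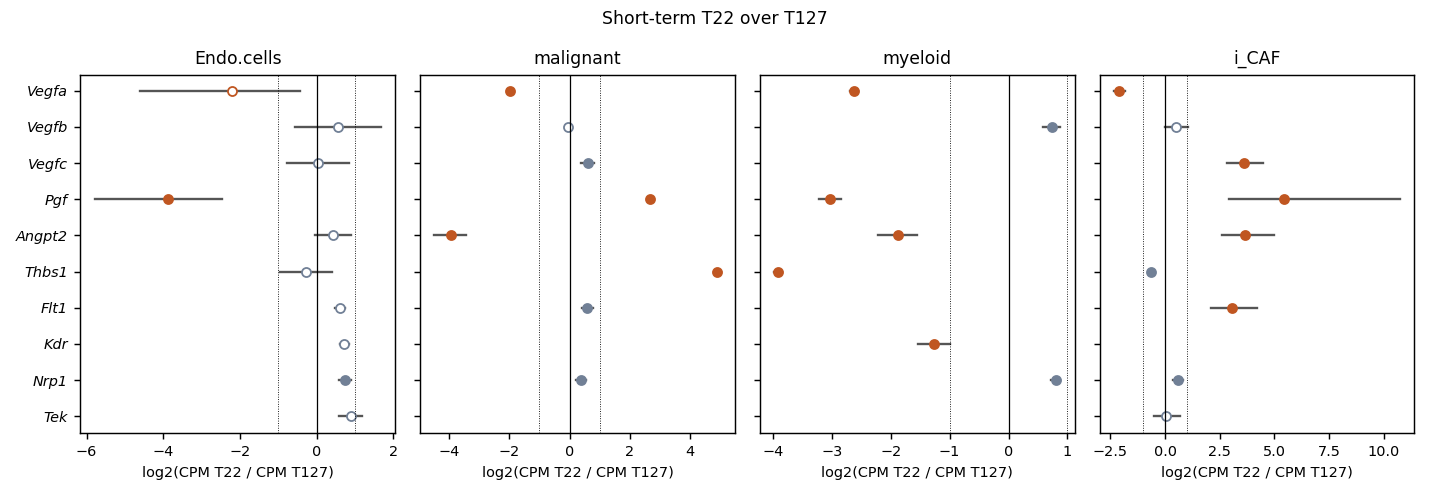
Log2 ratio of the level in T22 over that in T127 for each gene within Endo.cells, malignant cells, myeloid cells and i_CAF, with 95% counting intervals and dotted lines at 2-fold. Orange marks a 2-fold call, gray no call and an open symbol overlapping pool ranges, and genes under 5 CPM in both lines or with 0 UMIs in 1 are not drawn. Thbs1 lies at opposite ends for malignant and myeloid cells.

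Malignant cells of the 2 lines differed in 4 of the 8 genes that passed the minimum. In the short-term pools 1954 T22 cells (Malign_2 and Malign_3) stood against 4878 T127 cells (Malign_0 and Malign_1). Thbs1 and Pgf were higher in T22, a call 21.1% of all tested genes received, and Vegfa and Angpt2 were lower, as were 20.9%. The pools of these 4 genes did not overlap either, a pairing of criteria that 41.9% of all tested genes met, so 4 of 8 is near the background. Kdr and Tek were under the minimum level.

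Thbs1 was at 142, 152, 125 and 120.6 CPM in the malignant cells of the T22 pools, and at 4.08, 4.20, 5.49 and 4.22 CPM in those of the T127 pools. The ratio of the summed levels, 135.5 against 4.50 CPM, was 30.1 (28.0 to 32.5). Pgf was at 225.0, 224.0, 230.5 and 226.5 CPM in T22 and 32.8, 35.8, 37.9 and 35.3 CPM in T127, 6.40-fold higher (6.20 to 6.60). Malignant Pgf and endothelial Pgf were thus highest in different lines.

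Vegfa ran opposite to them. Its malignant level was 52.6, 57.2, 51.8 and 51.1 CPM in the T22 pools and 203.8, 219, 212 and 204 CPM in the T127 pools, 3.94-fold lower in T22 (3.79 to 4.09). Angpt2 was 15.4-fold lower (10.95 to 22.5), at 0.62 against 9.62 CPM, a call that is lost with a pseudocount of 10 CPM (log2 -0.89). Vegfb, which binds FLT1 but is a weak stimulus of vessel growth, stood at 48.1 and 49.4 CPM, 1.03-fold lower (0.981 to 1.07) with overlapping pools.

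In the long-term pools, where malignant cells of both lines were captured together, the direction of the Thbs1, Pgf and Vegfa ratios was that of the short-term pools. Thbs1 was at 78.9 CPM in 2259 T22 cells against 2.43 in 4603 T127 cells, 32.5-fold higher (28.5 to 37.2), and Pgf at 155 against 40.8 CPM, 3.81-fold higher (3.66 to 3.96). Of the 5 genes that passed, these 2 were called higher (20.2% of tested genes) and Vegfa was called lower (18.1%), at 39.6 against 88.5 CPM, 2.24-fold (2.12 to 2.36). The Vegfa call is lost in pools 5 to 8, where the levels were 47.4 and 85.8 CPM (log2 -0.84), and with a pseudocount of 10 CPM (log2 -0.99). Angpt2, at 0.31 and 4.64 CPM, fell under the minimum.

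The deposited malignant clusters of a line also differed from each other. In T127, Malign_1 held 308 CPM of Vegfa against 124 in Malign_0, 2.48-fold (2.43 to 2.54), when 1.66% of tested genes were 2-fold or more higher. In the long-term pools the same pair stood at 120 and 68.0 CPM, 1.77-fold and not called (1.40% of tested genes were). In T22, Malign_2 exceeded Malign_3 in Pgf by 8.98-fold (248 against 27.7 CPM) and in the few Nrp1 UMIs (7.40 against 0.76 CPM), as did 11.4% of tested genes, and Malign_3 exceeded Malign_2 in Thbs1 by 4.01-fold (418.5 against 104 CPM), as did 10.9%. The long-term pools gave 8.15-fold for Pgf and 3.85-fold for Thbs1 in the same directions, with backgrounds of 10.4% and 9.58%.

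Pathway genes of malignant cells moved in both directions. The 12 hypoxia response genes, a list that includes the HIF subunit genes Hif1a and Epas1, all passed. In short-term T22, 5 were lower (20.9% of all tested genes) and 1, Epas1, was higher (21.1%). Their median log2 ratio was -0.92 against -0.07 for all tested genes. The 6 angiogenesis inhibitors gave 4 higher and 1 lower of 5 that passed. The other VEGF, angiopoietin and semaphorin genes, a list that also holds Thbs2, Cd36 and Cd47, gave 3 higher and 5 lower of 10 that passed. The Notch, apelin and adrenomedullin genes gave 3 and 3 of 6, and the other growth factors 2 and 2 of 6. The largest rises in T22 were of Pdgfb, which recruits pericytes, Epas1, the gene of HIF-2 alpha, and Angpt1, the stabilizing TEK ligand, with log2 ratios of 5.64, 4.78 and 4.02. Sema3a had 0 UMIs in T22 malignant cells and 17649 in T127, at least 1771-fold lower, and the semaphorin and VEGF-C co-receptor gene Nrp2 (log2 -5.12) and the endothelial ligand gene Apln (log2 -3.38) followed. In the long-term pools Sema3a (log2 -5.04), Nrp2 (log2 -4.92) and Tie1 (log2 -3.03) were lowest in the T22 clusters, and Pdgfb (log2 3.78), Esm1 (log2 3.704) and Epas1 (log2 3.41) highest. Malignant cells in the long-term pools gave 5 lower and 1 higher of the 12 hypoxia genes, against 18.1% and 20.2% of tested genes.

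**Figure D5:**
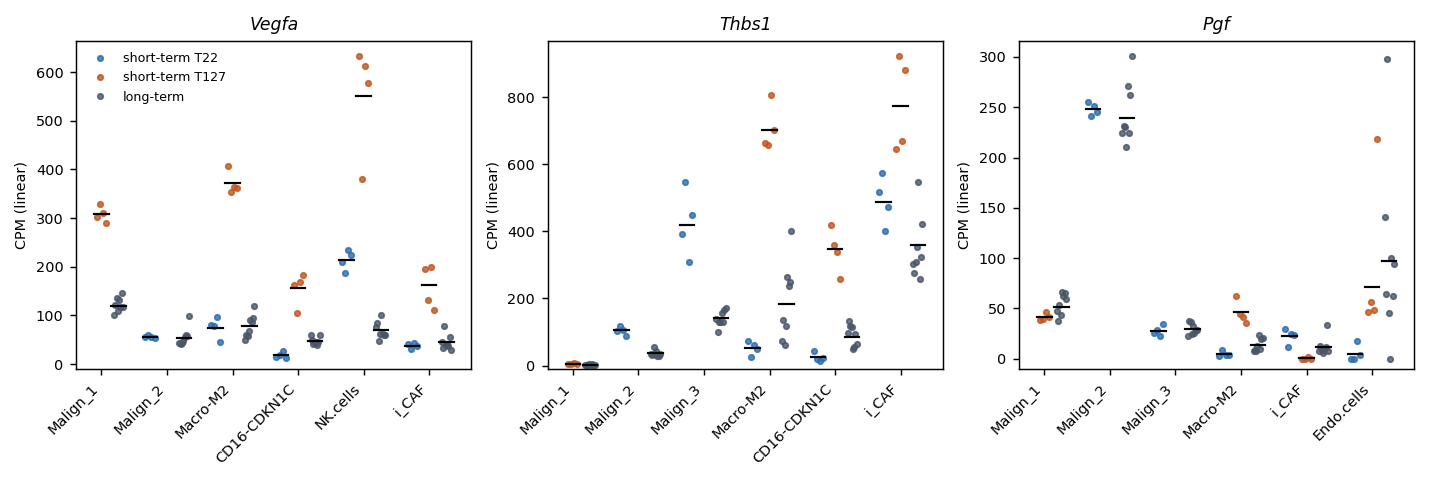
Level (CPM, linear axis) of Vegfa, Thbs1 and Pgf in malignant, myeloid, NK, fibroblast and, for Pgf, endothelial clusters, 1 dot per pool, colored by experiment. Thbs1 in Macro-M2 lies at 656 to 805.5 CPM in the T127 pools, 25.7 to 74.3 in the T22 pools and 61.3 to 402 in the long-term pools.

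Myeloid cells of T22 held less Thbs1, Vegfa, Pgf and Angpt2 RNA than those of T127. Of the 7 genes that passed the minimum in 7861 T22 and 2200 T127 cells, none was higher in T22 (5.68% of tested genes were) and 5 were lower (9.05%): Thbs1, Vegfa, Pgf, Angpt2 and Kdr. Thbs1 was at 38.3, 24.1, 27.4 and 32.3 CPM in the T22 pools and at 461, 434, 470.1 and 473 CPM in the T127 pools, 15.0-fold lower (14.3 to 15.8). The direction was thus opposite to that in malignant cells. Vegfa was at 37.4, 39.0, 52.0 and 37.1 CPM against 279, 257, 231 and 255 CPM, 6.18-fold lower (5.91 to 6.47). Pgf stood at 4.81 against 39.3 CPM, 8.16-fold lower (7.19 to 9.29), and Angpt2 at 1.93 against 7.11 CPM, 3.68-fold lower (2.92 to 4.65), a call that is lost with a pseudocount of 10 CPM (log2 -0.52).

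Kdr in myeloid cells was low in both lines, 3.39 against 8.17 CPM, and its call is lost without T22 pool 4 (log2 -0.93), without T127 pool 1 (log2 -0.91), without T127 pool 2 (log2 -0.998) and under median-of-ratios scaling (log2 -0.94). Nrp1, in contrast, was 1.74-fold higher in T22 myeloid cells (1.65 to 1.84), at 106, 111, 108 and 110.1 CPM against 56.9, 65.9, 66.0 and 61.1 CPM, and Vegfb was 1.66-fold higher (1.498 to 1.84). The pools of both genes separated, as did those of 65.8% of all tested genes at any fold.

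The lines differ in which myeloid clusters they hold, with 4205 of the T22 cells in CD16-CDKN1C and 1174 of the T127 cells in Macro-M2, so the clusters were also compared 1 by 1. In Macro-M2, Thbs1 was at 53.2 against 702.5 CPM, 13.2-fold lower in T22 (12.1 to 14.5), Vegfa at 73.8 against 372 CPM, 5.04-fold lower (4.65 to 5.47), and Pgf at 4.72 against 46.3 CPM, 9.79-fold lower (7.19 to 13.7). There 4 of 8 genes were lower and 0 higher, against 7.62% and 6.55% of tested genes. Thbs1 was lower in T22 in Macro-others by 9.60-fold, in Macro-MKI67 by 12.9-fold, in CD16-CDKN1C by 14.4-fold and in CD14-IL1B by 3.74-fold, when 11.6%, 7.60%, 13.2% and 9.12% of the genes tested in these clusters were 2-fold or more lower. The exception was CD14-PF4, 66 cells in each line, where Thbs1 stood at 762 and 728 CPM, a ratio of 1.05 (0.929 to 1.18). Neutrophil markers summed to 3873 CPM in CD14-PF4 of T22 and 1173 in that of T127, and epithelial markers to 1094 and 864 CPM. In T127 most of that sum was Epcam (509.5 CPM) and Cdh1 (173 CPM), with Krt8 and Krt18 at 96.1 and 85.1 CPM, whereas in T22 Epcam stood at 555, Krt8 at 275, Krt18 at 170 and Cdh1 at 93.8 CPM. In Macro-M2, the neutrophil markers S100a8, S100a9 and Retnlg were at 10.4, 1.32 and 0.33 CPM in T22 and 63.3, 91.7 and 20.2 CPM in T127. Csf3r was at 11.2 and 8.93 CPM. The platelet marker Ppbp was at 0.66 and 113 CPM, but Itga2b at 0.11 and 0.56 CPM and Gp9 at 0 and 0.07 CPM. In Macro-others, S100a8 and S100a9 were at 15.2 and 22.3 CPM in T22 and 14.9 and 16.1 CPM in T127. The part of these other cells in the CD14-PF4 and Macro-M2 levels was not tested.

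Vegfa was lower in T22 in each myeloid cluster compared, by 1.73-fold in CD14-IL1B, which was not called, and by 2.97-fold to 8.36-fold in the other clusters, CD14-PF4 among them (6.58-fold, when 11.5% of tested genes were lower). Nrp1 was called higher in T22 in Macro-others (2.08-fold), Macro-MKI67 (2.78-fold) and CD14-IL1B (2.26-fold), but was lower in CD16-CDKN1C (95.5 against 121 CPM, not called). The background of these calls was 6.72%, 7.33% and 4.51% of tested genes.

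Free RNA from lysed tumor cells can add UMIs to any cell, so lymphoid cells and pDC were read beside these levels. Their Vegfa levels spread widely. In T127, B.cells held 0 Vegfa UMIs in 42 cells, which allows up to 25.3 CPM, CD4_Treg-FOXP3 12.6 CPM and pDC 11.4 CPM, but CD4_Tcm-TCF7 held 237 CPM, against 372 in Macro-M2. These B.cells also carried the epithelial genes Epcam, Krt8 and Krt18 at 726, 844 and 1182 CPM. Epcam was at most 2.04 CPM in the malignant clusters of T127. In T22, CD8_Tn-CCR7 held 3.43 CPM, and the 38 B.cells 70.3 CPM on 15 UMIs (pools 23.1 to 238), against 73.8 in Macro-M2. The B.cells of T22 carried Epcam, Krt8 and Krt18 at 187, 201.5 and 239 CPM. The part of other cells in the B.cells levels was not tested. After thinning, 42.8% of Macro-M2 cells of T127 (39.9 to 45.6) and 9.25% of those of T22 (7.17 to 11.7) held a Vegfa UMI, against 26.7% of CD4_Tcm-TCF7 and 2.25% of CD4_Treg-FOXP3 cells of T127, and 5.28% of CD4_Tcm-TCF7 and 1.17% of CD8_Tn-CCR7 cells of T22. Unthinned, the Macro-M2 shares were 61.2% and 19.9%, at a median of 11286 and 13221 UMIs per cell. Thbs1 was detected in 37.9% and 5.97% of thinned Macro-M2 cells and in at most 0.993% of the thinned CD4_Tcm-TCF7 and CD8_Tn-CCR7 cells of T22. Epithelial markers summed to 298 CPM in Macro-M2 of T127 and 72.0 in that of T22. The T127 sum was mostly Epcam (143.6 CPM) and Cdh1 (135 CPM), which were at most 2.04 and 0.44 CPM in the malignant clusters of T127. The keratin genes those clusters carried, Krt8 (1412 and 1003 CPM) and Krt18 (655 and 597 CPM), were at 12.9 and 6.68 CPM in Macro-M2 of T127 and 5.05 and 3.95 CPM in that of T22.

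Over all long-term pools the summed Macro-M2 levels lay between those of the short-term lines, with Thbs1 at 184 CPM and Vegfa at 77.2 CPM. Thbs1 was at 72.8, 136, 61.3 and 118 CPM in pools 1 to 4 and 264, 235.5, 249.6 and 402 CPM in pools 5 to 8, so the pool sets did not overlap. Vegfa was at 50.0 to 67.7 CPM in pools 1 to 4, below the summed short-term T22 level, and at 87.0 to 119 CPM in pools 5 to 8. The labels do not say how these sets differ.

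Of the hypoxia response genes, 5 of the 9 that passed were lower in T22 and 0 higher in the summed myeloid class, where 9.05% of tested genes were lower. By cluster, 9 of 10 were lower in Macro-M2 (7.62% of tested genes), 5 of 9 in Macro-others (11.6%), Macro-MKI67 (7.60%) and CD16-CDKN1C (13.2%), 4 of 11 in CD14-PF4 (11.5%) and 2 of 9 in CD14-IL1B (9.12%), and none was higher. The median log2 ratio of the list ran from -0.67 in CD14-IL1B, against -0.21 for all tested genes, to -1.38 in Macro-M2, against -0.08. Ndrg1 (log2 -3.16), Hif1a, the gene of HIF-1 alpha (log2 -2.90), and Ankrd37 (log2 -2.23) were lowest in T22 myeloid cells. Serpinf1 (log2 2.72), the matrix gene Sparc (log2 1.99) and Pdgfb (log2 1.96) were highest.

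NK.cells held the highest Vegfa level of any cluster with 20 cells or more in both short-term experiments, 214 CPM in T22 (pools 188 to 233.5) and 552 in T127 (380 to 634), 2.58-fold lower in T22 (2.34 to 2.84). After thinning, 32.2% (29.5 to 35.0) and 64.1% (55.3 to 72.3) of NK cells held a Vegfa UMI. In the long-term pools the level was 70.4 CPM (pools 47.8 to 101). Vegfc was the other called gene in NK cells, at 7.65 against 31.0 CPM, and 4.34% of tested genes were lower by 2-fold or more. CD4_Tcm-TCF7 cells followed the same order, with Vegfa at 38.8 CPM in T22 and 237 in T127.

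The fibroblast clusters carried ligands and receptors alike. In i_CAF, named for inflammatory fibroblasts, 291 T22 cells stood against 95 T127 cells, and 4 of the 9 genes that passed were higher in T22 (9.52% of tested genes) and 1 lower (6.74%). Vegfc, which acts on lymphatic and blood endothelium, was at 91.8, 77.2, 94.9 and 89.8 CPM in the T22 pools and 11.9, 4.28, 1.92 and 11.5 CPM in the T127 pools, 12.2-fold higher (7.22 to 22.4). Angpt2 was at 44.4, 61.3, 44.8 and 33.6 CPM against 0, 2.14, 11.5 and 0 CPM, 12.6-fold higher (6.05 to 31.6). Flt1 was 8.24-fold higher (4.28 to 18.2), at 38.5 against 4.67 CPM. Pgf was at 22.6 against 0.52 CPM, a ratio of 43.5 whose interval of 7.69 to 1727 reflects the single T127 UMI. The pools of these 4 genes did not overlap, which held beside a 2-fold call for 12.4% of all tested genes.

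Vegfa was called lower in T22 i_CAF, at 37.9 against 162 CPM, 4.27-fold (3.62 to 5.05). Thbs1 was 1.58-fold lower (1.49 to 1.68), at 488 against 772 CPM, and was called when the 5% of cells with the most UMIs were left out (log2 -1.23). Tek stood at 17.9 and 17.1 CPM. Long-term i_CAF held 3.40 CPM of Angpt2, 19.3 of Vegfc and 33.4 of Tek, and Tek differed between pools 1 to 4 (14.5 to 18.4 CPM) and pools 5 to 8 (35.0 to 61.5 CPM). Among the lists, 7 of 11 hypoxia genes that passed were lower and 0 higher in T22 i_CAF, against 6.74% and 9.52% of tested genes, led by Pdk1 (log2 -1.92), Ankrd37 (log2 -1.87) and the glucose transporter gene Slc2a1 (log2 -1.80). Ptprb, a phosphatase that dampens TEK signaling, had 101 UMIs in T22 and 0 in T127, at least 9.14-fold higher, followed by the adrenomedullin receptor gene Calcrl (log2 2.41) and by Col18a1 (log2 1.67), the precursor of endostatin. Endothelial markers summed to 122 CPM in i_CAF of T22 and 17.6 in that of T127. In T22, Plvap alone held 118 CPM, Cdh5, Cldn5 and Tie1 had 0 UMIs and the other 4 were at 0.14 to 2.82 CPM. Mural markers summed to 638 and 240.3 CPM, of which Pdgfrb, also a fibroblast gene, held 509 and 164.5 CPM and Rgs5 3.38 and 1.56 CPM. Macrophage markers summed to 77.2 and 732 CPM (pools 10.7 to 2288 in T127), and the part of macrophages in these differences was not tested.

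The cluster named my_CAF was led by pericyte and mural genes: all 6 mural markers were highest there, with a summed level of 13891 CPM in T22 and 6814 in the long-term pools, beside fibroblast markers at 5359 and 3917 CPM. It carried Nrp1 at 261 and 213 CPM, Angpt2 at 71.1 and 72.7 CPM, Flt1 at 90.3 and 68.7 CPM and Thbs1 at 145.5 and 241 CPM in T22 and the long-term pools, while Kdr had 0 UMIs in both. Angpt2 was detected in 26.1% and 18.3% of its thinned cells. T127 held 8 such cells, too few to read, with 0 genes higher and 3 lower of the 8 that passed in T22 (27.2% and 12.9% of tested genes).

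Kdr also appeared in pDC, at 179 CPM in T22 (pools 0 to 521), 66.6 in T127 (53.6 to 106) and 39.8 in the long-term pools. Endothelial markers summed to 616 CPM in pDC of T22 (pools 109 to 1775), 265 in T127 and 166 in the long-term pools. In T127 this was Pecam1 (99.8 CPM) and Cdh5 (164.5 CPM), with Plvap at 0.95 CPM and the other 5 markers at 0. In the long-term pools it was likewise mostly Pecam1 (93.7 CPM) and Cdh5 (62.4 CPM), with Cldn5 and Esam at 0, whereas in T22 all but Cldn5 were present. The part of endothelial cells in the Kdr of T22 pDC was not tested.

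Across the 22 clusters of the long-term pools, the genes whose log2 level ran most like that of a member, of 9844 genes searched, were as follows. Kdr ran closest to Cdh5 (Pearson's r = 0.91, and 0.97 over 19 clusters of T22 and 0.93 over 15 of T127), Angpt2 to the junction gene Esam (r = 0.93, and 0.76 and 0.85) and Nrp1 to Tfpi, which encodes a coagulation inhibitor (r = 0.88, and 0.88 and 0.73). Thbs1 ran closest to Dock1 (r = 0.88, and 0.75 and 0.87). Vegfa ran closest to Comtd1 (r = 0.82), with lower values in the short-term clusters of T22 (0.49) and T127 (0.62). The clusters share libraries, and these values only describe how log2 levels ran together over clusters. For Kdr and Angpt2, long-term Endo.cells stood at 954 and 338 CPM against cluster medians of 0.85 and 2.05 CPM, so 1 cluster weighs heavily.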

How the data were processed

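Raw UMI counts of 32285 genes per cell and a cluster name per cell were deposited for each of 16 pools (10x 3′ v3.1, antibody hashtags, dead cells removed). The authors aligned reads with Cell Ranger 6.0.0 to GRCm38, counting introns, filtered cells by genes and mitochondrial UMIs and removed doublets with Scrublet. These are mouse data. Normalized tables were not used, since they lack Vegfb and Vegfc.

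From the deposited counts, UMIs were summed by cluster and experiment and written as CPM. The classes were malignant (Malign_0 to Malign_3), myeloid (Macro and CD14 or CD16 clusters), lymphoid (T, NK and B cells), pDC, fibroblast (i_CAF and my_CAF) and endothelial. Poisson, Clopper-Pearson and conditional binomial intervals (95%) cover counting error only. UMIs collapse PCR copies, but droplets of 1 pool share a library. Cells were thinned to 3000 UMIs for shares. Doublets were not called again. Pool make-up was compared as counts over clusters, with a chi-square of 60.6 for T22, near its 57 degrees of freedom, and of 81.7 for T127, above them. Expected counts under 5 numbered 4 for T22 and 20 for T127, so the T127 value is only approximate. Whether pools of a group are repeated captures is not given in the sources used here, and they were never treated as replicates.

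The 10 genes, the lists of vessel, hypoxia and cell type genes and the tests were chosen with earlier results of these data known. Named beside the 10 are, per comparison and direction, up to 3 list genes with the largest log2 ratio among those called, and for 5 members the genes most like them across long-term clusters. Counts of UMIs per pool were 34755906 to 55600377. Alternatives were a minimum of 1000 genes per cell, the 5% of cells with most UMIs left out, a mean over cells, a pseudocount of 10 CPM, no minimum level, median-of-ratios scaling, every deposited copy of a barcode, thinning to 2000 UMIs or none, classes weighted equally, and each pool left out in turn. Single myeloid clusters, NK cells, pairs of malignant clusters, non-overlapping pools and the sets of long-term pools were added after seeing the data. The scripts were tested on simulated data. The software was pandas 2.3.3, scipy 1.17.1, numpy 2.4.6 and matplotlib 3.10.9 under Python 3.11.15.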

Additional observations from a re-analysis of the deposited data

Results flagged for a closer look

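The levels of the 10 genes in Endo.cells and in the cluster where each was highest, 43 in all, were examined for a pool far from the others of its experiment. Chance alone marks about 1 in 20 such levels, so the 3 found are near that number. Pgf in T127 pool 4 stood at 219 CPM (30 UMIs), with the other pools at 46.5 to 56.3 CPM. Vegfa in long-term pool 8 stood at 16.6 CPM on 3 UMIs, with the others at 0 to 7.60 CPM, and the level over the other pools was 3.12 CPM. Thbs1 in long-term pool 8 stood at 211 CPM (38 UMIs), with the others at 36.3 to 104 CPM, and the level without that pool was 75.0 CPM.

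The ratio of malignant over myeloid cells took one sign in every T22 pool and the other in every T127 pool for 2 of the 9 genes with at least 5 CPM in 1 of the 4 groups, as it did for 18.6% of all 11603 such genes, so 2 of 9 is near the background. The difference was not tested. For Thbs1 the median log2 ratio was 2.01 in T22 (pools 1.87 to 2.61) and -6.45 in T127 (pools -6.51 to -6.18). For Angpt2 it was -0.84 in T22 (pools -1.24 to -0.54) and 0.41 in T127 (pools 0.20 to 0.55), at levels of at most 9.62 CPM.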

How the results depend on the processing

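No paired analysis was possible between experiments because no result comes from a test and pool numbers link no samples across experiments. Clusters compared within the same pools could have been paired by pool. Their levels were summed over pools instead, except in the ratios of malignant over myeloid cells above. Of 48 called log2 ratios of members, 0 took the opposite sign under an alternative, and of 29 not called 9 did. These ratios are of the main comparisons only. The calls in single myeloid clusters, NK cells and pairs of malignant clusters are not among them. One call lost its direction: Kdr in my_CAF, which rests on 1 T127 UMI, ranged from -4.21 to 0 with 1 pool left out, at 0 without T127 pool 2. A minimum of 1000 genes per cell and median-of-ratios scaling kept all 27 counts within 1.5 times. Both added Thbs1 as lower in Endo.cells than in other cells of T22 (log2 -1.05 and -1.11), and the scaling dropped Kdr in myeloid cells (log2 -0.94). The scaling removes a median shift of -0.13 in malignant cells, -0.14 in myeloid cells, and 0.12 and 0.15 in Endo.cells over other cells of T22 and the long-term pools. Classes weighted equally moved 145 of 180 shares of a gene's UMIs beyond both the range of pools and the counting interval. Of 110 shares of cells, 40 left their interval with thinning to 2000 UMIs and 67 with none, where Kdr in Endo.cells stood at 93.2% in T22, 90.7% in T127 and 73.9% in the long-term pools, and Vegfa in Macro-M2 at 19.9%, 61.2% and 30.6%.

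A mean over cells gave 2 members higher in T22 Endo.cells, with 24.5% of all genes called, and 1 higher in myeloid cells. It also added Thbs1 as lower in Endo.cells than in other cells of T127 (log2 -2.59, against -0.57). Leaving out T127 pool 3 added the same call (log2 -1.29). A pseudocount of 10 CPM left 1 member lower in T22 Endo.cells, 1 in malignant cells, 3 in myeloid cells, 0 in long-term malignant cells and 1 in long-term Endo.cells over other cells. The calls lost were Vegfa in Endo.cells, Angpt2 in malignant cells, Angpt2 and Kdr in myeloid cells, Kdr in my_CAF, Vegfa in long-term malignant cells, and, in Endo.cells over other cells, Pgf in T127 and Vegfb in the long-term pools. The percent of all genes called then fell to 3.91 in Endo.cells, 26.0 in malignant cells, 7.55 in myeloid cells, 7.10 in i_CAF, 19.6 in my_CAF and 21.7 in long-term malignant cells, and for Endo.cells over other cells to 23.2 in T22, 22.5 in T127 and 20.7 in the long-term pools. With no minimum level the percents were 17.5 in malignant cells, 5.72 in myeloid cells, 8.09 in i_CAF, 20.3 in my_CAF, 15.4 in long-term malignant cells, and 18.5, 16.0 and 16.4 for Endo.cells over other cells of T22, T127 and the long-term pools. It gave 2 members lower in i_CAF, 2 higher in my_CAF and 2 lower in long-term malignant cells, since it tests more genes. Leaving out the 5% of cells with most UMIs gave 2 lower in i_CAF. Long-term pools 5 to 8 gave 0 lower in malignant cells, and pools 1 to 4 gave 1 lower in Endo.cells over other cells. With 1 pool left out, members higher in T22 ranged from 0 to 1 in Endo.cells and from 0 to 1 in my_CAF. Apart from the calls named in the report, the cause was not tested. The few Endo.cells, 88 in T22 and 118 in T127, limit ratios of genes near 5 CPM.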
